A study of Mus musculus with 24 samples.

Results

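The 36 genes described here are macrophage genes chosen by name, by a rule that uses no measured value. They are the entries of the expression table whose symbol is on a list of macrophage surface receptors, complement subunits, lysosomal proteins, Fc receptors, scavenger receptors, integrins and chemokine genes. That list was drawn up with earlier results of these data known. All 36 were among the 55487 genes measured, and 35 had at least 1 TPM (a length-corrected share of the library's transcripts) in at least 3 of the 24 samples, which is the filter a gene had to pass to be tested. Marco, a scavenger receptor, did not pass it and is given by its values only.

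RNA was sequenced from the mammary glands of 24 ageing mice, 3 in each of 8 groups, to ask how the gland of 2 transgenic lines responds to anti-hormonal drugs. Each mouse carried MMTV-rtTA, a tetracycline-controlled activator under the mouse mammary tumour virus promoter, which is known for its activity in mammary epithelium, and a tet-op transgene, either tet-op-CYP19A1 (aromatase, which makes oestrogens from androgens) or tet-op-Esr1 (oestrogen receptor alpha). The 4 groups of the CYP19A1 line were mice of 20 months with a 60-day pellet of 25 mg tamoxifen carried for 2 months, mice of 20 months with a 60-day pellet of 2.5 mg letrozole carried for 2 months, untreated mice of 20 months and untreated mice of 18 months, and the Esr1 line had the same 4 groups. Tamoxifen binds the oestrogen receptor and blocks it in the breast, and letrozole inhibits aromatase. The transgene had been induced for 8 months in every 20-month group and for 6 months at 18 months. No mouse without a transgene was among the samples, so nothing here compares a transgene with its absence. The 20-month mice with no drug carry a tag, PLA, that the labels do not explain, and they are called untreated. Per the labels, the 3 samples of a group come from different mice.

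Macrophages of the mammary gland sit beside the ducts, in the fat pad and along vessels, where they clear dying epithelial cells and debris and take part in the growth and the regression of the ducts. They depend on the growth factor receptor encoded by Csf1r and on the transcription factor PU.1, encoded by Spi1. They are recognised by a shared set of surface, complement and lysosomal genes, and subsets of them by further receptors: CD11c and CX3CR1 in cells close to the epithelium, LYVE1, CD206 and CD163 in cells of the stroma and the vessels, and CCR2 in cells that recently came from blood monocytes.

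The promoters of the 5 genes that passed a test in at least 1 comparison are shown first, since they are the genes the comparisons turn on. Each is the 250 bases upstream of a RefSeq start of the gene on GRCm38.p6, read 5′ to 3′ on the gene's own strand. Capitals mark GAGGAAG, a core of the PU.1 site, or TGACTCA, the AP-1 site, found on either strand, so that GAGGAAG on the other strand reads CTTCCTC and TGACTCA reads TGAGTCA. The window of Mertk lies at chr2:128698665-128698914 on the plus strand. That of Fcgr3 lies at chr1:171059404-171059653 on the minus strand, that of Fcgr4 at chr1:171018676-171018925 on the plus strand, that of Itgax at chr7:128129300-128129549 on the plus strand and that of Cx3cr1 at chr9:120068297-120068546 on the minus strand.
Mertk: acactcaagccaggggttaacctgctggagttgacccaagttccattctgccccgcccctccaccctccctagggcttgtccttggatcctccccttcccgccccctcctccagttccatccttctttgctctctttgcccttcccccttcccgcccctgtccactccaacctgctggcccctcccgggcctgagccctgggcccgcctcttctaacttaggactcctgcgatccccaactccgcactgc
Fcgr3: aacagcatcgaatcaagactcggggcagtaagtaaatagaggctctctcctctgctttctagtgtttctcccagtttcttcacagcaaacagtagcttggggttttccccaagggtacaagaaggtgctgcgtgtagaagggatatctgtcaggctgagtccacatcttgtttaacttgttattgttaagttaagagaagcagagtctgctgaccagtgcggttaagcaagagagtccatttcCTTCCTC
Fcgr4: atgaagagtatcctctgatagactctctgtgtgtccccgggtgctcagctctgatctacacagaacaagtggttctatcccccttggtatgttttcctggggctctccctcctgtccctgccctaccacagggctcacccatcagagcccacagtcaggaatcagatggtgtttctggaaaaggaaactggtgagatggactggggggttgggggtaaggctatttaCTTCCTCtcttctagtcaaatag
Itgax: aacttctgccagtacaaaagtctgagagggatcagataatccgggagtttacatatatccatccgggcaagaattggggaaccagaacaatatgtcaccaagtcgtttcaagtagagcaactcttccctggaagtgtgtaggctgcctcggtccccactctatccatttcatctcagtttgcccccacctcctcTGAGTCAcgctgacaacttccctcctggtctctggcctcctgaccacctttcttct
Cx3cr1: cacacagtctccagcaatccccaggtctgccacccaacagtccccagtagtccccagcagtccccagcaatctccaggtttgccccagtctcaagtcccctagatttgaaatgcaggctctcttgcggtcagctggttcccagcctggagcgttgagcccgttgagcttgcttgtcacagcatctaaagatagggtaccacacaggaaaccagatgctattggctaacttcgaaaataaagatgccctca

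The windows of Fcgr3 and Fcgr4 each hold the PU.1 core close to the start used, and that of Itgax holds the AP-1 site. Neither letter string occurs in the window of Mertk or of Cx3cr1, which says only that these letters are not in these 250 bases. Fcgr3 had 2 windows in the RefSeq table, and the one shown belongs to a start inside the annotated gene. The Itgax window ends at 128129549, past the annotated gene start at 128129526, so it too belongs to a start inside the gene. Of the 36 genes, 27 had a window. GAGGAAG occurred in 8 of the 27 genes (C1qc, Fcgr1, Fcgr3, Fcgr4, Itgam, Marco, Mrc1 and Trem2), that is in 29.0% of their 31 windows, against 10.6% of all 32851 windows. TGACTCA occurred in 3 of the 27 (Cd68, Folr2 and Itgax), or 9.68% of their windows, against 4.46% of all windows. Mertk has the most GC-rich of the 5 windows, at 63.6%, and Fcgr3 the least, at 46.0%.

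Some libraries stood apart. Over the 24 libraries, nuclear ribosomal RNA genes took a median of 0.0577% of the TPM. Their share was 17.4% in replicate 2 of the Esr1 20-month untreated group, 2.02% in its replicate 3 and 1.92% in the gland of Esr1 tamoxifen replicate 2. Between 14410 and 17684 genes reached 1 TPM per library, and read depth is unknown because TPM keeps none. Esr1 20-month untreated replicate 2 had the lowest value of all libraries for 11 of the 35 tested genes, and CYP19A1 letrozole replicate 3 for 14. Esr1 tamoxifen replicate 2 had the highest value for 14 and Esr1 letrozole replicate 1 for 10. The mean log2(TPM + 1) over the panel ran from 2.81 in CYP19A1 letrozole replicate 3 to 4.29 in Esr1 tamoxifen replicate 2. Results that rest on 1 of these libraries are given with and without it. A whole gland holds many cell types, and in such bulk RNA fewer macrophages and less RNA per macrophage cannot be told apart.

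Macrophage transcripts were present in every gland. Of the 36 genes, 30 had at least 1 TPM in all 24 libraries, and the exceptions were Marco, Fcgr4, Fcgr1, Cx3cr1, Timd4 and Ccl2. Lyz2, the lysozyme of myeloid cells, was the highest of the 36 in 24 of 24 libraries, between 78.6 and 639 TPM. The next by their median over the 24 libraries were C1qa at 51.6 TPM, the protease Ctss (cathepsin S) at 44.5 TPM, C1qc at 37.2 TPM and the protease Lgmn (legumain) at 36.6 TPM. At the low end, Fcgr1, the high-affinity IgG receptor, had a median of 1.23 TPM, Fcgr4, another activating IgG receptor, 0.8 TPM, and Marco 0.085 TPM with a highest value of 0.7 TPM. Marco was listed at 0 in 3 libraries.

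**Figure D1:**
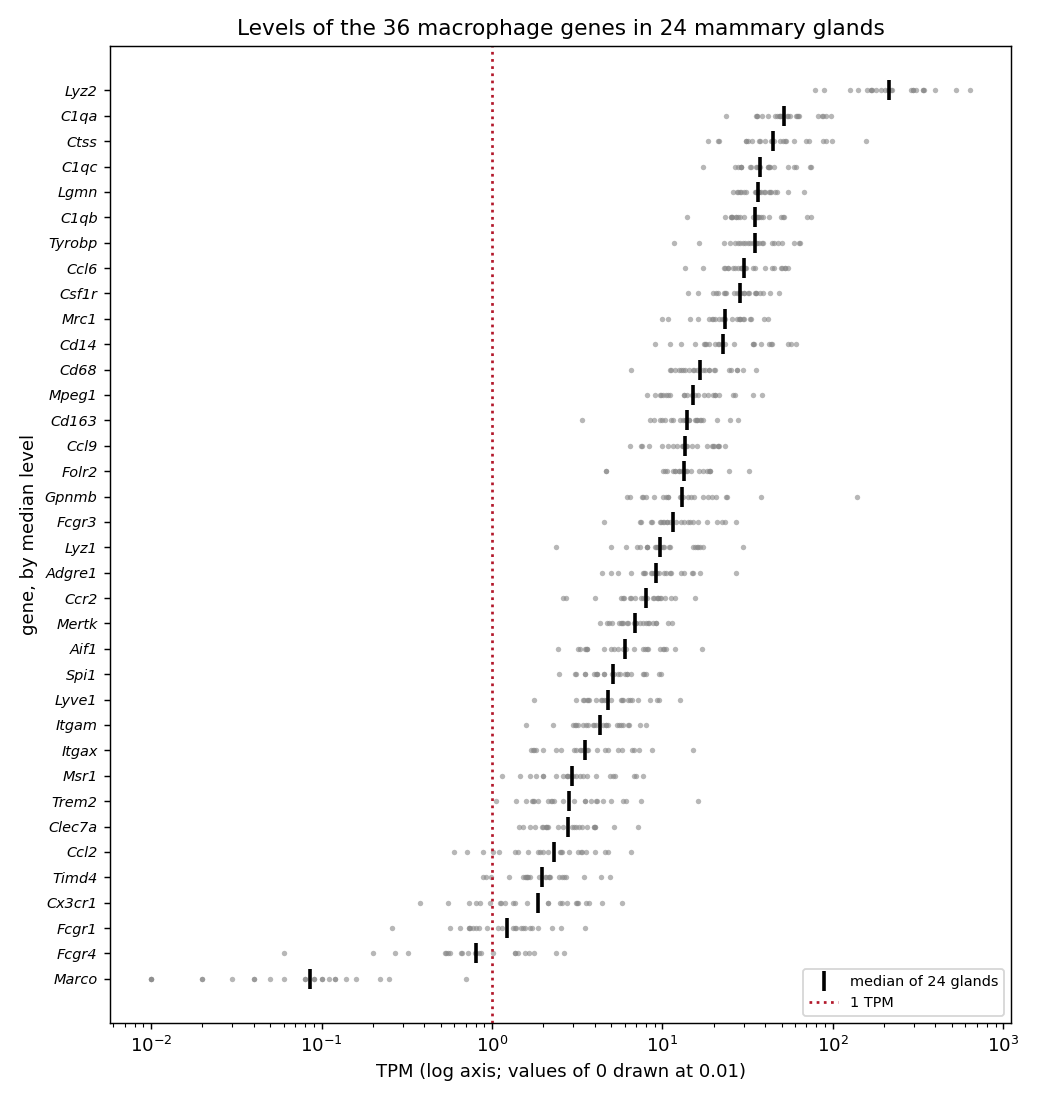
TPM of each of the 36 genes in the 24 glands on a log axis (grey points, 1 per gland), with the median as a black bar and a dotted line at 1 TPM; a value of 0 is drawn at 0.01. Lyz2 stands alone at the top with a median of 214 TPM, most genes lie between 2 and 50 TPM, and Marco is the only gene that reached 1 TPM in no gland.

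The rest of the panel lay between these ends. Among the genes of macrophage identity, Mpeg1, a pore-forming protein of phagocytes, ran from 8.11 over a median of 15.2 to 38.27 TPM, and the transcription factor gene Spi1 from 2.47 over 5.11 to 9.85 TPM. Tyrobp, the signalling adaptor of Trem2 and other receptors, was the highest of the receptor and adaptor genes at 11.64 to 64.3 TPM, while Trem2 and Clec7a had medians of 2.82 and 2.78 TPM. Of the scavenger receptors, the mannose receptor Mrc1 and Cd14 led with medians of 23.2 and 22.7 TPM, and Msr1, scavenger receptor A, and Timd4 were low at 2.96 and 1.96 TPM. The chemokine Ccl2, which draws CCR2-bearing monocytes, had a median of 2.31 TPM, and Ccr2 itself 7.97 TPM.

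Several orders between these genes held in all or nearly all glands. C1qa was above C1qc and C1qc above C1qb, the 3 chains of the complement starter C1q, in 24 of 24 libraries, with C1qa at 1.14 to 1.67 times C1qc and C1qc at 1.01 to 1.3 times C1qb. The 3 C1q genes lie side by side on chromosome 4, from C1qb at 136880126 to the end of C1qa at 136898844. Lyz2 exceeded its neighbour Lyz1, a lysozyme better known from Paneth cells of the gut, by 8.12 to 129 times, although the 2 copies are so alike that the estimate can trade reads between them. Fcgr3, an activating IgG receptor, was above both Fcgr1 and Fcgr4 in 24 of 24 libraries. The chemokine Ccl6 was above Ccl9 in 24 of 24, by 1.92 to 3.10 times, and Csf1r above Adgre1 (the F4/80 antigen) in 24 of 24, by 1.78 to 4.22 times.

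The defining markers were measured in every group. Adgre1 averaged 8.61 ± 0.687 TPM with tamoxifen, 5.9 ± 1.74 with letrozole, 8.2 ± 2.85 untreated at 20 months and 11.2 ± 3.62 at 18 months in the CYP19A1 line (SD, n = 3 each, as for the values that follow). In the Esr1 line it averaged 10.1 ± 2.41 TPM with tamoxifen, 15.9 ± 9.6 with letrozole, 10.2 ± 4.4 untreated at 20 months and 13.4 ± 3.14 at 18 months. The letrozole group was wide because of replicate 1, at 26.97 TPM beside 9.55 and 11.26 TPM in its partners. Csf1r, the growth factor receptor, had means of 28.9 ± 0.977 TPM with tamoxifen, 20 ± 3.59 with letrozole, 27.4 ± 6.98 untreated at 20 months and 32.4 ± 2.7 at 18 months in the CYP19A1 line. Its means in the Esr1 line were 27.2 ± 10.2 TPM with tamoxifen, 36.3 ± 10.2 with letrozole, 26.9 ± 14.7 untreated at 20 months and 33.4 ± 5.46 at 18 months. Cd68, a lysosomal glycoprotein of phagocytes, averaged between 12.3 ± 5.47 TPM in CYP19A1 letrozole glands and 23.5 ± 4.43 TPM in Esr1 glands at 18 months. C1qa averaged 48.2 ± 0.92 TPM with tamoxifen, 33.8 ± 9.29 with letrozole, 48.9 ± 13.2 untreated at 20 months and 68.7 ± 19.4 at 18 months in the CYP19A1 line. In the Esr1 line it averaged 51.7 ± 25.7 TPM with tamoxifen, 67.8 ± 26.5 with letrozole, 62.1 ± 21.4 untreated at 20 months and 70.6 ± 14.7 at 18 months. C1qb lay between 25.1 ± 11 TPM (CYP19A1 letrozole) and 50.3 ± 21.2 TPM (CYP19A1 18 months), and C1qc between 27.3 ± 9.81 TPM (CYP19A1 letrozole) and 54 ± 18.2 TPM (CYP19A1 18 months). For each of these 6 markers the CYP19A1 letrozole group had the lowest mean of the 8. None of the 6 passed limma's test in any of the 16 comparisons (7 of 96 tests had an unadjusted p under 0.05), while Adgre1 passed in the averaged line comparison with either other scaling (-0.48 with median-ratio scaling and -0.56 without the most abundant genes). A wider list of 8 defining markers also held Fcgr1 and Mertk, and 2 of its 128 tests passed, both for Mertk.

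Mice of 1 group varied widely. In 28 of the 35 tested genes the within-group SD of log2(TPM + 1) was larger than the SD of the 8 group means, and in 7 it was not. A mean of 3 glands varies less than a single gland, so this count does not show that the groups were alike. It was not made over all genes. Gpnmb, a glycoprotein of lysosome-rich macrophages, had the widest spread within groups at 0.86, followed by the lipid-sensing receptor Trem2 at 0.68 and the endotoxin co-receptor Cd14 at 0.65. Mertk, the receptor kinase with which macrophages engulf dying cells, had the narrowest at 0.23, beside an SD of group means of 0.27. The widest case was Esr1 tamoxifen replicate 2, with 138 TPM of Gpnmb where its 2 partners had 23.58 and 8.04 TPM. The same gland had 16.19 TPM of Trem2 beside 3.04 and 1.87 TPM, 15.15 TPM of Itgax (CD11c) beside 3.67 and 3.11 TPM, and 639 TPM of Lyz2 beside 179.7 and 140.94 TPM. It did not lead in Lyz1, where its 4.96 TPM was the lowest of its group.

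**Figure D2:**
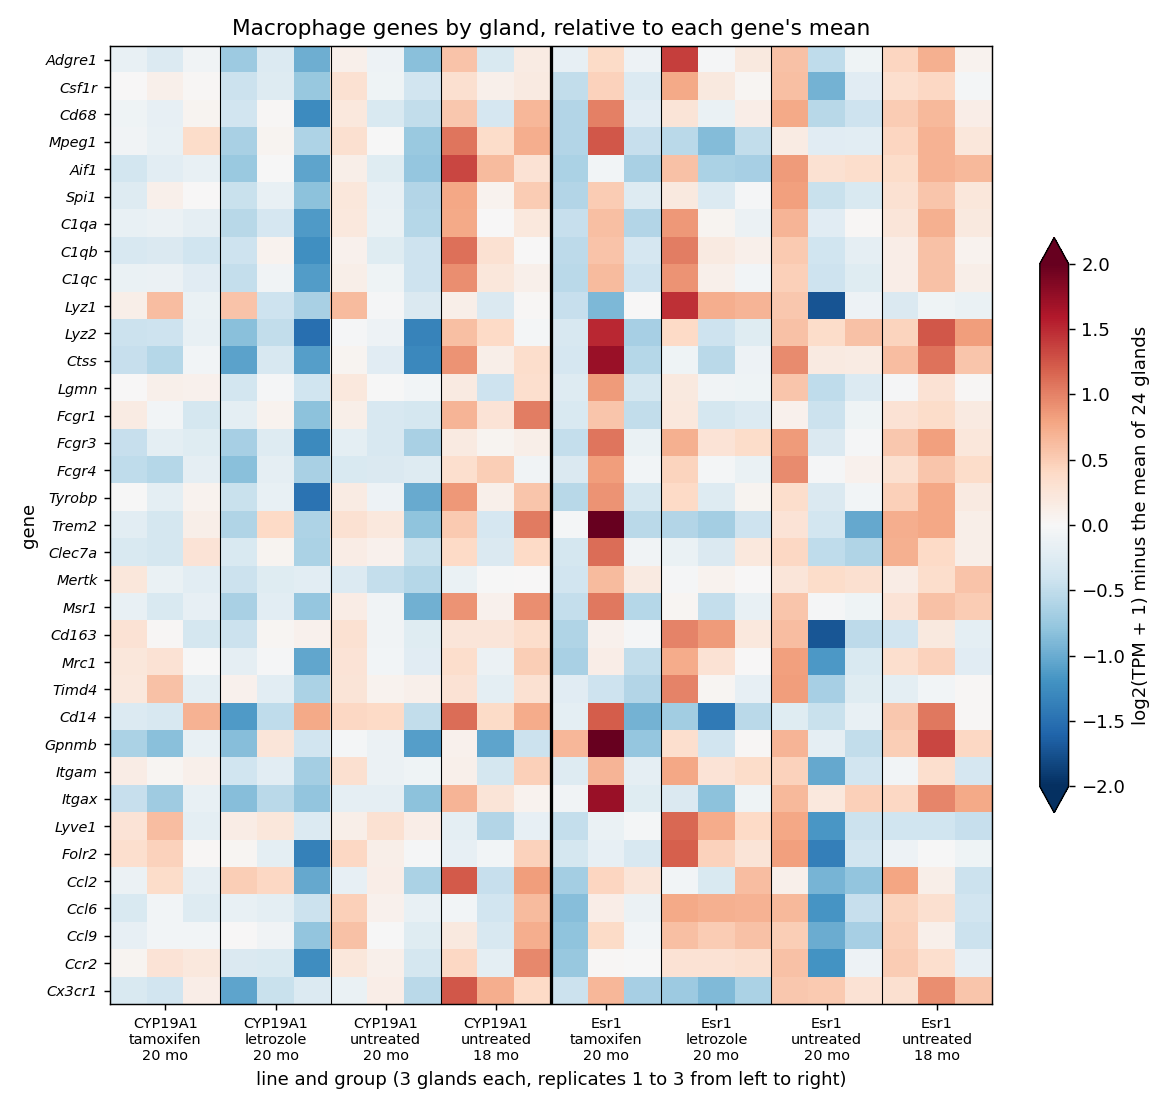
log2(TPM + 1) of the 35 tested genes (rows, by role) in the 24 glands (columns), as the difference from each gene's mean over all glands, with colours saturating at 2 in each direction. Esr1 tamoxifen replicate 2 is red for most genes (panel mean 4.29), and CYP19A1 letrozole replicate 3 is blue for most (panel mean 2.81).

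Lines are compared first over all conditions, then within each. Averaged over the 4 conditions, 4 of the 35 genes had a lower level in the CYP19A1 line and none a higher one: Mertk, Fcgr3, Fcgr4 and Itgax. That is 11.4% of the panel, beside 7.27% of all 19325 genes tested (3.96% higher and 3.31% lower), by limma with Benjamini-Hochberg adjustment. The median difference of the 35 was -0.12 log2 units, against 0.0024 over all genes. It was -0.04 without Esr1 20-month untreated replicate 1, -0.05 without Esr1 tamoxifen replicate 2 and -0.07 without CYP19A1 18-month replicate 2. It was -0.20 without Esr1 20-month untreated replicate 2 and -0.19 without Esr1 tamoxifen replicate 1.

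Mertk (chromosome 2, 128698915 to 128803162) had a lowest, median and highest value of 4.32, 5.85 and 8.25 TPM in the 12 CYP19A1 glands, and of 5.06, 8.16 and 11.31 TPM in the 12 Esr1 glands. The means were 5.95 ± 1.09 TPM in CYP19A1 and 8.29 ± 1.72 TPM in Esr1 glands (SD, n = 12 each), a log2 difference of -0.41 ± 0.09 (SE, limma adjusted p = 0.0077). The 2 sets of glands overlapped, and the call held in all 30 alternative analyses run, including each library left out.

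Fcgr3 (chromosome 1, 171051169 to 171065915) ran from 4.51 over a median of 10.2 to 14.13 TPM in the CYP19A1 glands, and from 8.57 over 15.6 to 26.91 TPM in the Esr1 glands. Its difference was -0.65 ± 0.16 (adjusted p = 0.017 in limma), and it too held in all 30 alternatives. Fcgr4 (chromosome 1, 171018926 to 171029761), which encodes another activating IgG receptor next to it, ran from 0.06 over 0.555 to 1.65 TPM in CYP19A1 and from 0.55 over 1.18 to 2.63 TPM in Esr1 glands. Its difference was -0.51 ± 0.14 (limma adjusted p = 0.025) and passed in 27 of 30 alternatives. Fcgr4 reached 1 TPM in 9 of 24 libraries and in no CYP19A1 gland of 20 months, where its highest value was 0.67 TPM. It thus met the low-value filter mainly through Esr1 glands, the line in which it was higher. Without that filter it passed with a limma adjusted p of 0.046. Whether reads were traded between Fcgr3, Fcgr4 or other Fc receptor genes was not tested, so the share of each in the difference is uncertain.

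Itgax (chromosome 7, 128129526 to 128150657), the integrin chain CD11c of dendritic cells and of duct-associated macrophages, ran from 1.7 over 2.92 to 6.79 TPM in CYP19A1 and from 1.76 over 5.05 to 15.15 TPM in Esr1 glands. The difference was -0.62 ± 0.18 (limma adjusted p = 0.042). This call was the least steady of the 4, passing in 14 of 30 alternatives, and was among those lost when CYP19A1 tamoxifen replicate 2, CYP19A1 18-month replicate 3 or Esr1 letrozole replicate 1 was left out, each of which left 2 calls, Mertk and Fcgr3. Without Esr1 tamoxifen replicate 2, the gland with 15.15 TPM, the difference was -0.46 and still passed. Lyz2, at 190 ± 77 TPM in CYP19A1 and 318 ± 150 TPM in Esr1 glands (n = 12 each), missed the threshold at -0.72 ± 0.22 (adjusted p = 0.052, limma) and passed in 9 of 30 alternatives. Without Esr1 tamoxifen replicate 3 there were 6 calls, with Lyz2 and Gpnmb added. Lyz2 is named after its value was seen.

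**Figure D3:**
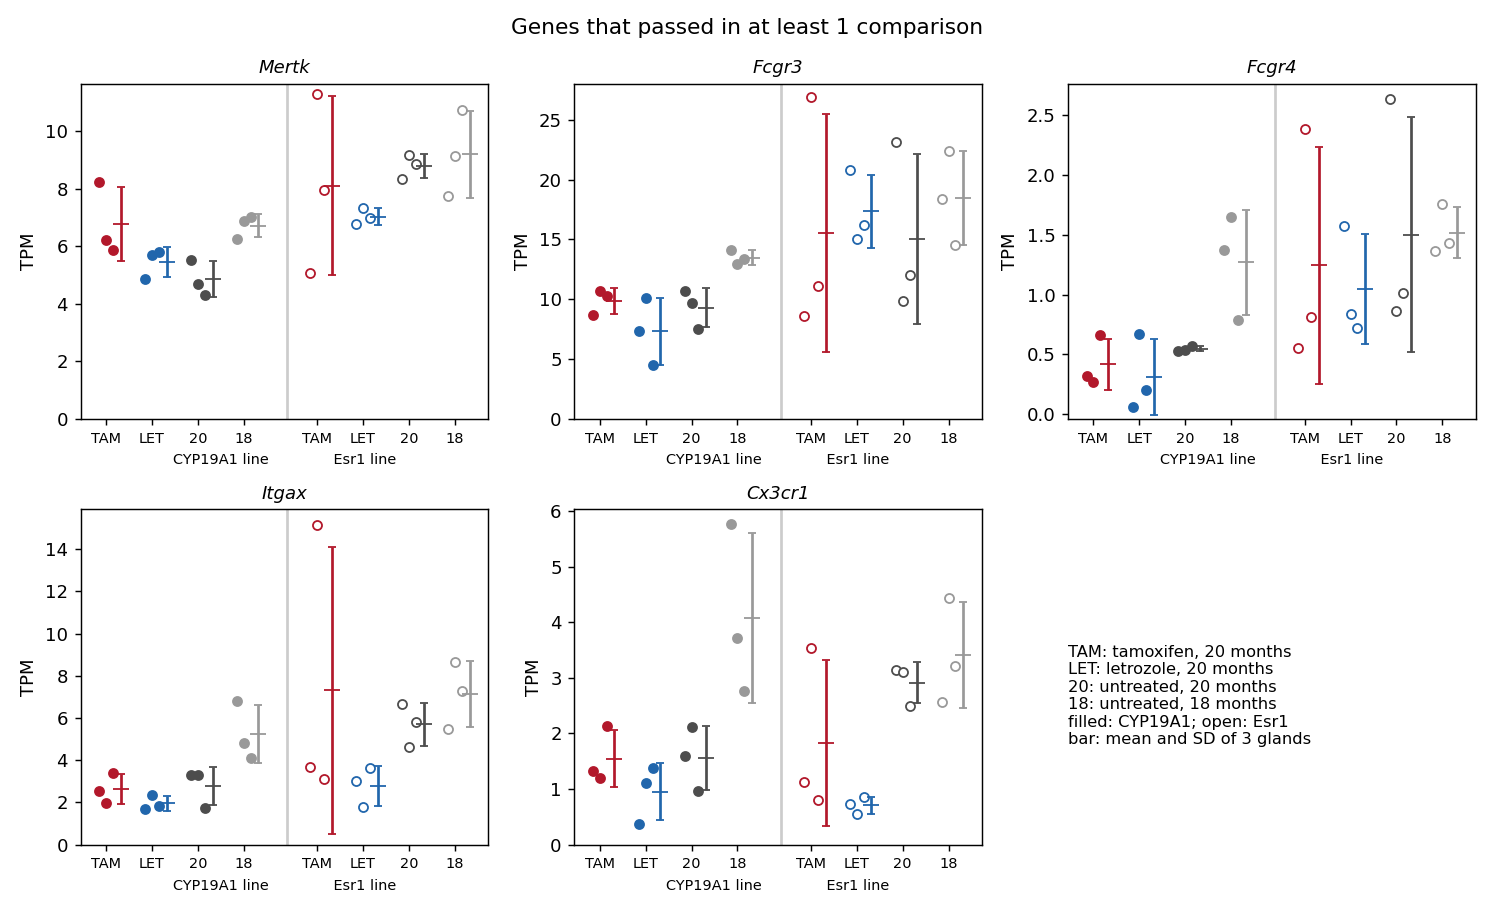
TPM in each gland of the 5 genes that passed a test in at least 1 comparison, by group (TAM tamoxifen, LET letrozole, 20 and 18 untreated at these ages in months; filled points CYP19A1, open points Esr1), with the mean and SD of 3 glands beside the points; the lower SD bar of Fcgr4 in CYP19A1 letrozole glands passes 0. Mertk, Fcgr3 and Fcgr4 have a lower mean in CYP19A1 than in Esr1 glands in all 4 conditions. Cx3cr1 has its lowest mean in the Esr1 letrozole glands (0.55 to 0.85 TPM), which overlap the CYP19A1 letrozole glands (0.38 to 1.37 TPM).

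The 2 lines also differ in genes that neighbour the Fc receptors. Within 2 Mb on either side of Fcgr3, 17 of 69 tested genes passed in the averaged line comparison (24.6%, 5 higher and 12 lower), beside 7.27% of all genes. Around Mertk it was 1 of 54 (1.85%) and around Itgax 3 of 105 (2.86%). Ifi202b, an interferon-inducible gene that was higher in the CYP19A1 line by 4.10 ± 0.10 (adjusted p = 1.3e-17 in limma), lies 2.91 Mb from Fcgr3 on chromosome 1. The labels do not say whether the lines share a strain background, and a difference of linked alleles cannot be told apart from a difference of the transgenes.

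Within single conditions fewer genes passed between the lines. Between untreated glands of 20 months, 1 of 35 genes, Mertk, was lower in CYP19A1, or 2.86% beside 5.27% of all genes (2.12% higher, 3.16% lower). Mertk had 5.54, 4.7 and 4.32 TPM in the CYP19A1 glands and 8.34, 9.17 and 8.86 TPM in the Esr1 glands. The groups did not overlap, and the difference was -0.75 ± 0.19 (limma adjusted p = 0.025). It missed the threshold without CYP19A1 replicate 2 or 3 or Esr1 replicate 2 or 3 (0 calls each), and 3 genes passed without Esr1 replicate 1, Cd163 and Lyve1 being higher in CYP19A1. In all, 7 of 35 genes lay below with no overlap, beside 13% of all genes.

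At 18 months none of the 35 genes passed between CYP19A1 and Esr1 glands in limma, beside 1.36% of all genes. Of the 35, 1 had an unadjusted p under 0.05. The 2 genes with the smallest p were Mertk, with 6.26, 6.87 and 7.01 TPM in CYP19A1 and 7.74, 9.13 and 10.76 TPM in Esr1 glands (-0.40 ± 0.19, adjusted p = 0.58), and Gpnmb, with 15.39, 6.43 and 10.47 TPM in CYP19A1 and 20.75, 38 and 19.61 TPM in Esr1 glands (-1.22 ± 0.66, adjusted p = 0.70). Neither overlapped between the lines, and with Fcgr3 they made 3 of 35 genes that lay below with no overlap, beside 3.54% of all genes. Only Cd163 lay above without overlap, beside 8.86% of all genes. Under tamoxifen none of the 35 passed either, beside 1.01% of all genes, and 3 of the 35 had an unadjusted p under 0.05. Gpnmb had 8.93, 7.65 and 12.92 TPM in CYP19A1 and 23.58, 138.32 and 8.04 TPM in Esr1 tamoxifen glands (-1.56 ± 0.66, limma adjusted p = 0.53). Itgax had 2.53, 1.98 and 3.41 TPM in CYP19A1 and 3.67, 15.15 and 3.11 TPM in Esr1 tamoxifen glands (-0.91 ± 0.36, limma adjusted p = 0.46). Both overlapped between the lines, and Timd4, Folr2 and Ccr2 lay above without overlap, 3 of 35 genes beside 10.3% of all genes. Gpnmb passed, at -2.46 with an adjusted p of 0.046, only when Esr1 tamoxifen replicate 3 was left out of the limma fit.

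Letrozole glands showed the widest gap between the lines over the panel. None of the 35 genes passed limma's threshold between CYP19A1 and Esr1 letrozole glands, beside 0.906% of all genes. Of the 35, 14 had an unadjusted p under 0.05, a count not made over all genes. In 18 of the 35 every CYP19A1 letrozole gland lay below every Esr1 letrozole gland, which held for 13.6% of all genes, and the median difference was -0.65 against -0.074 over all genes. Adgre1 had 5.46, 7.82 and 4.42 TPM in CYP19A1 and 26.97, 9.55 and 11.26 TPM in Esr1 letrozole glands, a difference of -1.18 ± 0.34 (limma adjusted p = 0.16). Fcgr3 had 7.37, 10.13 and 4.51 TPM in CYP19A1 and 20.84, 15.02 and 16.18 TPM in Esr1 letrozole glands, a difference of -1.18 ± 0.33 (limma adjusted p = 0.13).

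Both genes separated the lines with no overlap. The 18 genes include Csf1r, all 3 C1q genes, Lyz1, Lyz2, Cd163, Mrc1, Lyve1, Folr2, Itgam, Ccl6, Ccl9 and Ccr2, and their differences from -0.32 for Mertk to -1.18 cover each role group. The chemokine Ccl6 had 28.78, 27.84 and 23.44 TPM in CYP19A1 and 54.84, 52.62 and 52.35 TPM in Esr1 letrozole glands. Its difference was -0.98 ± 0.35 (adjusted p = 0.35 in limma over all groups) and passed when only these 2 groups were fitted (adjusted p = 0.0078). Ccl6 is named after its values were seen. The median of the panel was -0.45 without CYP19A1 letrozole replicate 3, the gland with the lowest panel mean, and -0.53 without Esr1 letrozole replicate 1. General leukocyte genes (6 genes, none at 0) summed to 52.4 to 88.5 TPM in CYP19A1 and 80.5 to 107 TPM in Esr1 letrozole glands, and fibroblast genes (5 genes, none at 0) to 347 to 801 TPM in CYP19A1 and 925 to 993 TPM in Esr1 letrozole glands. Dendritic cell genes (10 genes, none at 0, of which 7 were tested) summed to 73.2 to 152 TPM in CYP19A1 and 208 to 265 TPM in Esr1 letrozole glands, without overlap, and fibroblast sums did not overlap either. The dendritic cell list includes the MHC class II genes H2-Aa and H2-Ab1, which macrophages can express too, so its sum is not specific to dendritic cells. No gene of these 3 lists passed in this comparison in limma (1 fibroblast and 3 dendritic cell genes had an unadjusted p under 0.05), and their part in the result was not tested.

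Age is compared between untreated glands of 20 and 18 months. In the CYP19A1 line 1 of 35 genes, Cx3cr1, was lower at 20 months, or 2.86% beside 9.45% of all genes (3.01% higher, 6.45% lower). Cx3cr1, the fractalkine receptor of tissue macrophages, had 1.6, 2.12 and 0.97 TPM at 20 months and 5.76, 3.72 and 2.77 TPM at 18 months. The ages did not overlap, and the difference was -0.97 ± 0.29 (limma adjusted p = 0.044).

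The call depended on the analysis. It was absent with a pseudocount of 0.1, without the low-value filter, under both other scalings and with only these groups fitted, and of the 6 analyses that leave out 1 library it held only without CYP19A1 18-month replicate 3. Aif1 (IBA1, an actin-binding protein of macrophages) had 6.78, 5.02 and 3.2 TPM at 20 months and 17.14, 10.13 and 7.73 TPM at 18 months, with no overlap, but missed the threshold at -1.05 ± 0.33 (limma adjusted p = 0.051). Fcgr1 had 1.39, 0.77 and 0.73 TPM at 20 months and 2.53, 1.68 and 3.49 TPM at 18 months, again with no overlap and again just short (-0.85 ± 0.27, limma adjusted p = 0.051). Both are named after their values were seen. Aif1 passed, and Cx3cr1 did not, without CYP19A1 20-month replicate 1, and both passed with a muscle score as covariate or without 18-month replicate 3.

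Of the 35 genes, 28 had a negative difference with age in the CYP19A1 line, with a median of -0.48 against -0.23 over all genes. Median-ratio scaling moved the median of all genes to -0.02 and that of the panel to -0.23. In 9 of the 35 genes every 20-month gland lay below every 18-month gland, beside 33.8% of all genes. The genes of stromal and vessel macrophages had no common sign. Lyve1, a hyaluronan receptor, had 5.7, 6.62 and 5.78 TPM at 20 months and 4.38, 3.1 and 4.53 TPM at 18 months, without overlap (0.50 ± 0.32, limma adjusted p = 0.31), as did 7.48% of all genes in that direction. The folate receptor Folr2 (0.10 ± 0.40), Cd163 (-0.28 ± 0.38) and Mrc1 (-0.25 ± 0.37) overlapped between the ages.

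T cell genes were lower at 20 months in the same glands. All 6 of them were lower in the CYP19A1 line (Cd3d, -1.09 ± 0.24, limma adjusted p = 0.015), and their sum was 5.79 to 12 TPM at 20 months and 21.8 to 49.4 TPM at 18 months, with none at 0. Of the 10 chemokine genes beside the panel, 7 were tested and 2 were lower, Ccl5, a T cell chemokine (-1.99 ± 0.35, limma adjusted p = 0.0097), and Ccl12, a monocyte chemokine (-1.07 ± 0.24, limma adjusted p = 0.016). Skeletal muscle genes summed to 12800 to 21900 TPM at 20 months and 15.4 to 4700 TPM at 18 months, with 2 of 6 (Myh1 and Mb) higher. Dendritic cell genes summed to 111 to 246 TPM at 20 months and 207 to 375 TPM at 18 months, and mast cell genes to 73 to 145 TPM at 20 months and 41 to 65.1 TPM at 18 months. The sums of B cell genes (4.89 to 8.23 TPM at 20 months and 4.68 to 6.62 TPM at 18 months) and neutrophil genes (181 to 376 TPM at 20 months and 110 to 355 TPM at 18 months) overlapped. General leukocyte genes summed to 64.1 to 108 TPM at 20 months and 131 to 203 TPM at 18 months. Of them only Lcp1 passed, and it was lower (-1.27 ± 0.28, limma adjusted p = 0.015). Proliferation genes summed to 5.51 to 11.1 TPM at 20 months and 14.5 to 36.8 TPM at 18 months, with Mki67, Top2a, Birc5 and Cdk1 lower. Epithelial genes summed to 203 to 307 TPM at 20 months and 319 to 529 TPM at 18 months, and none of them passed. The part of these cells and tissues in the result was not tested.

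In the Esr1 line none of the 35 genes passed between 20 and 18 months in limma and none had an unadjusted p under 0.05; 0.00517% of all genes passed. The median was -0.34 against -0.14 over all genes, and 2 of 35 genes were positive, beside 22.6% of all genes. With median-ratio scaling the medians were -0.18 for the panel and 0.01 for all genes. The median of the panel was -0.11 without Esr1 20-month untreated replicate 2, the library with 17.4% ribosomal RNA, and -0.69 without its replicate 1. Trem2 had 4.05, 2.21 and 1.05 TPM at 20 months and 5.89, 6.14 and 3.52 TPM at 18 months, a difference of -0.91 ± 0.52 (limma adjusted p = 0.73). Clec7a, the beta-glucan receptor dectin-1, had 4.04, 1.66 and 1.51 TPM at 20 months and 5.2, 3.98 and 3.12 TPM at 18 months, a difference of -0.64 ± 0.34 (limma adjusted p = 0.73). Both overlapped between the ages through Esr1 20-month replicate 1. Another 3 genes, Mpeg1, Fcgr1 and Cd14, lay below at 20 months without overlap, beside 4.94% of all genes. The difference between the lines in the age effect passed for none of the 35 genes in limma, with 1 at an unadjusted p under 0.05 (Aif1, -0.99 ± 0.47, adjusted p = 0.58), so Cx3cr1 (-0.82 ± 0.42, adjusted p = 0.61) is not shown to have changed more in 1 line.

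With tamoxifen no gene of the panel passed. None of the 35 genes passed between tamoxifen and untreated glands of 20 months in limma in either line. Over all genes, 0.16% passed in the CYP19A1 line and 1.55% in the Esr1 line. In each line 1 of the 35 had an unadjusted p under 0.05. The median differences were 0.06 in the CYP19A1 line and 0.03 in the Esr1 line, beside 0.055 and 0.051 over all genes in those lines. Both medians changed sign with single libraries left out. The CYP19A1 median was -0.13 without untreated replicate 3 and 0.20 without untreated replicate 1. The Esr1 median was -0.34 without tamoxifen replicate 2, 0.19 without tamoxifen replicate 1 and 0.12 without tamoxifen replicate 3. It was 0.32 without untreated replicate 1, -0.23 without untreated replicate 2 and -0.01 without untreated replicate 3. Mertk had 8.25, 6.22 and 5.88 TPM in CYP19A1 tamoxifen glands and 5.54, 4.7 and 4.32 TPM in untreated ones, a gap with no overlap that did not pass (0.40 ± 0.19, limma adjusted p = 1.0) and that 15.4% of all genes had in that direction. Ccl6, next by p, had 25.78, 30.61 and 26.66 TPM in CYP19A1 tamoxifen glands and 45.03, 34.02 and 28.8 TPM in untreated ones and overlapped (-0.35 ± 0.35).

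In the Esr1 line Aif1 had 3.62, 5.86 and 3.55 TPM in tamoxifen glands and 11.84, 7.86 and 8.11 TPM in untreated ones. It was the only gene of the 35 to lie below without overlap, beside 6.98% of all genes, and did not pass (-0.95 ± 0.33, limma adjusted p = 0.14), except with median-ratio scaling (-1.02, adjusted p = 0.040). Cx3cr1 overlapped, at 1.13, 3.54 and 0.8 TPM in tamoxifen glands and 3.15, 3.1 and 2.49 TPM in untreated ones (-0.59 ± 0.29, limma adjusted p = 0.29). The difference of the tamoxifen effect between the lines passed for none of the 35 genes in limma (2 at an unadjusted p under 0.05, Aif1 at 1.01 ± 0.47 and Mertk at 0.57 ± 0.26, adjusted p = 0.46 each).

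With letrozole the differences in the Esr1 line ran in both directions. Against untreated Esr1 glands of 20 months, 1 of 35 genes passed, Cx3cr1, which was lower, or 2.86% beside 8.65% of all genes (2.85% higher, 5.81% lower). Cx3cr1 had 0.73, 0.55 and 0.85 TPM in letrozole glands and 3.15, 3.1 and 2.49 TPM in untreated glands, with a wide gap between them. The difference was -1.19 ± 0.29 (limma adjusted p = 0.018) and passed in 10 of 13 alternatives. Expressed as a share of Csf1r in the same gland, Cx3cr1 stood at 1.52%, 1.71% and 2.95% with letrozole and at 7.33%, 22.0% and 10.5% untreated. Csf1r itself averaged 36.3 ± 10.2 TPM with letrozole and 26.9 ± 14.7 TPM untreated, and its part in this separation was not tested. Of the 6 genes of macrophage identity, 3 had a positive and 3 a negative difference with letrozole, and no other gene served as denominator. Itgax, with 3.01, 1.76 and 3.61 TPM in letrozole and 6.66, 4.62 and 5.8 TPM in untreated glands, lay below with no overlap as well but did not pass (-0.84 ± 0.36, limma adjusted p = 0.15). Dendritic cells also carry CD11c. The 10 genes listed for them, with MHC class II genes among them that other cells share, summed to 208 to 265 TPM in letrozole and 104 to 277 TPM in untreated glands.

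At the other end stood receptors of stromal and perivascular macrophages. Cd163, the haemoglobin scavenger receptor, had 27.59, 24.86 and 15.69 TPM in letrozole glands and 20.93, 3.36 and 8.98 TPM in untreated glands (1.23 ± 0.38, limma adjusted p = 0.051). Lyve1 had 12.63, 9.34 and 7.17 TPM in letrozole and 9.51, 1.76 and 3.6 TPM in untreated glands (1.04 ± 0.32, limma adjusted p = 0.051). Both overlapped, through the first untreated gland. Lyz1 had 29.57, 17.34 and 16.69 TPM in letrozole and 15.12, 2.36 and 9.3 TPM in untreated glands (1.38 ± 0.43, limma adjusted p = 0.053), with no overlap. Ccl6 had 54.84, 52.62 and 52.35 TPM in letrozole and 50.41, 13.6 and 22.96 TPM in untreated glands (1.05 ± 0.35, limma adjusted p = 0.067), again with no overlap. These 4 missed the threshold and are named after their values were seen.

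The 4 move in and out with the analysis. Median-ratio scaling gave 6 calls, with Lyz1, Cd163, Itgam (CD11b), Lyve1 and Ccl6 higher and Cx3cr1 lower, and scaling without the most abundant genes gave 5, of which 4 were higher. A muscle score as covariate gave 4, with Lyve1, Ccl6 and Ccl9 higher and Cx3cr1 lower. Leaving out Esr1 20-month untreated replicate 1, the untreated gland with the highest values of these genes, gave 10 calls, 9 of them higher (Csf1r, Lyz1, Cd163, Mrc1, Itgam, Lyve1, Folr2, Ccl6 and Ccl9). Leaving out Esr1 letrozole replicate 1 or 2, or untreated replicate 2, the library with 17.4% ribosomal RNA, left 0.

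**Figure D4:**
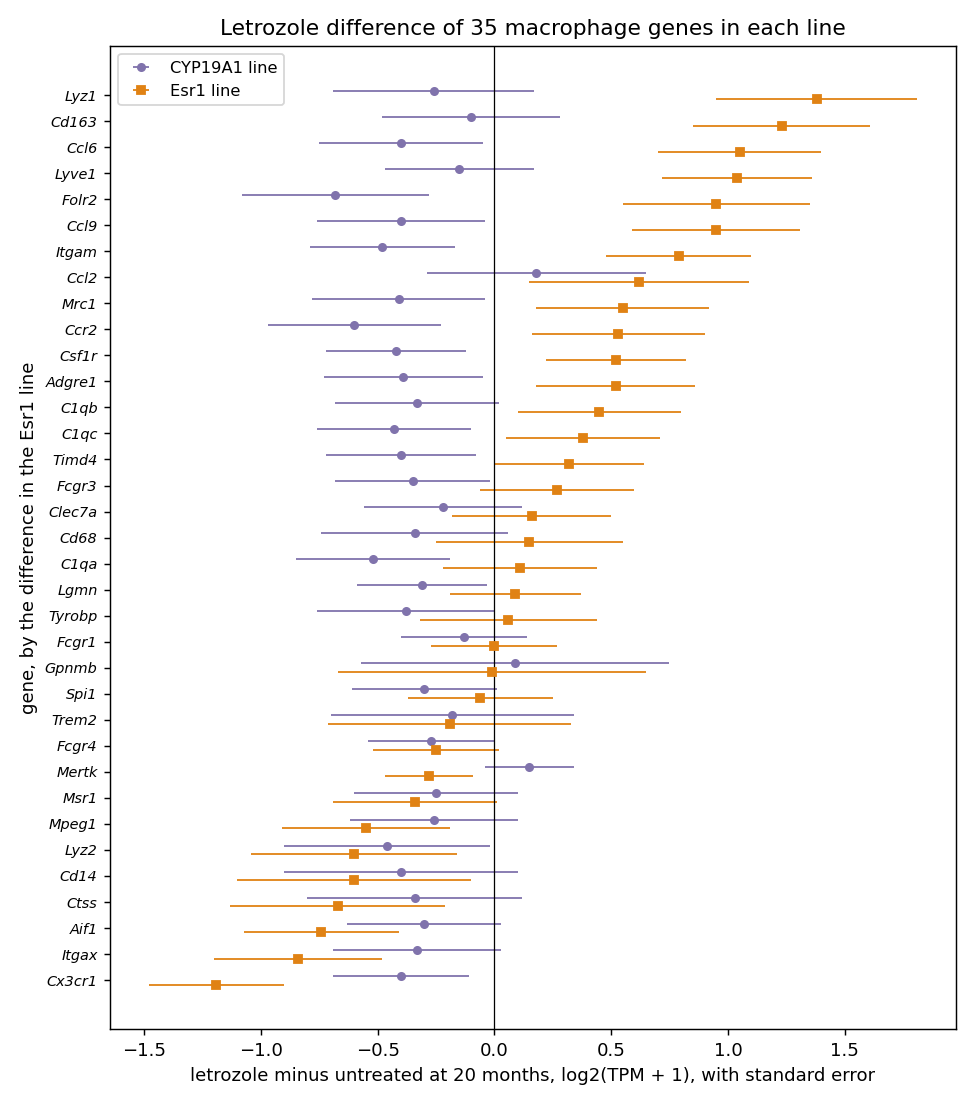
Difference between letrozole and untreated glands of 20 months on the log2(TPM + 1) scale for the 35 tested genes, with the standard error of the fit, in the CYP19A1 line (circles) and the Esr1 line (squares), ordered by the Esr1 line. The Esr1 values spread from -1.19 (Cx3cr1) to 1.38 (Lyz1), and the CYP19A1 values stay between -0.68 and 0.18.

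By role, the pattern in the Esr1 line was mixed. Both genes of the stromal macrophage role, which leaves Cd163 and Mrc1 with the scavenger receptors, were positive (0.95 for Folr2 and 1.04 for Lyve1). Mrc1 averaged 30.5 ± 8.27 TPM with letrozole and 23.4 ± 16.4 TPM untreated, and the groups overlapped. Also positive were 4 of 5 chemokine and chemokine receptor genes, with Cx3cr1 the exception, and all 3 C1q genes (0.11 to 0.45). Of the 4 lysosomal genes, Lyz1 and Lgmn were positive and Lyz2 and Ctss negative, and the integrins were apart, with Itgam at 0.79 ± 0.31 and Itgax at -0.84 ± 0.36. Over all 35 the median was 0.15, against -0.0056 over all genes, and 3 genes lay above and 6 below with no overlap, beside 11.2% and 16.5% of all genes. Neither count stands out from that background. The median of the panel was -0.08 without Esr1 untreated replicate 2, 0.03 without its replicate 3 and 0.48 without its replicate 1, and 0.0 without Esr1 letrozole replicate 1 and 0.26 without Esr1 letrozole replicate 2.

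**Figure D5:**
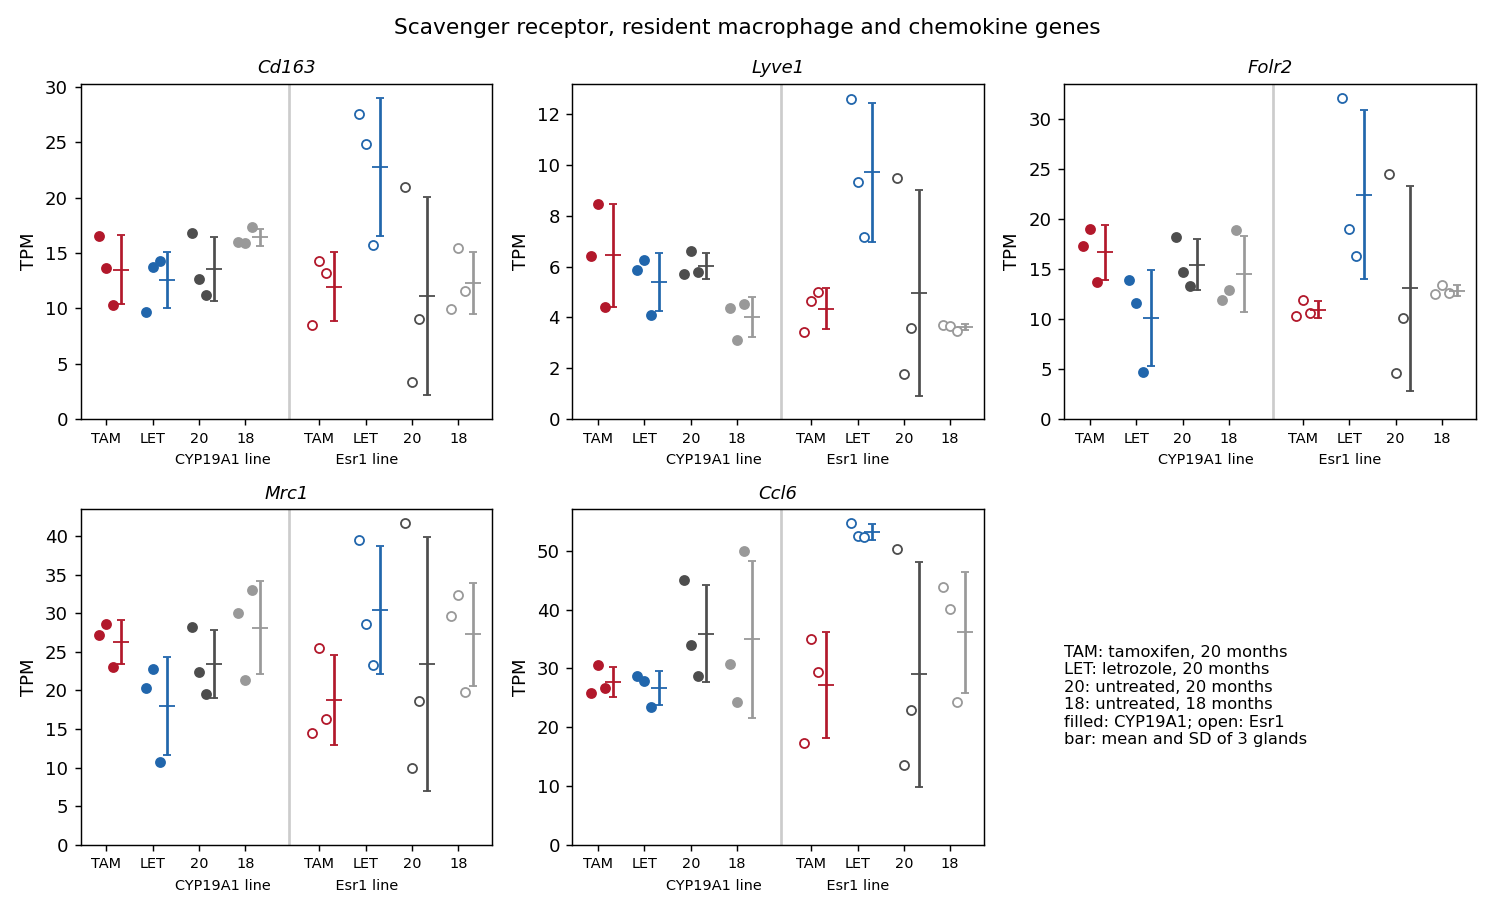
TPM in each gland of 2 scavenger receptors (Cd163, Mrc1), 2 genes of stromal macrophages (Lyve1, Folr2) and the chemokine Ccl6, by group as labelled, with the mean and SD of 3 glands. In the Esr1 line the 3 letrozole glands have Ccl6 at 52.35 to 54.84 TPM, and the untreated glands of 20 months spread from 13.6 to 50.41 TPM, so the first untreated gland reaches into or near the letrozole range for each of the 5 genes.

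Other cell types differed between the same Esr1 glands. General leukocyte genes summed to 80.5 to 107 TPM in letrozole and 106 to 161 TPM in untreated glands. Of them only Lcp1 passed, and it was lower with letrozole (-1.14 ± 0.28, limma adjusted p = 0.017). The 5 milk protein genes were all lower with letrozole (Csn1s1, -5.78 ± 1.09, limma adjusted p = 0.0057), with sums of 74.1 to 356 TPM in letrozole and 5350 to 22800 TPM in untreated glands. Of 6 epithelial genes 4 were lower (Cdh1, -1.89 ± 0.39, limma adjusted p = 0.0090), with sums of 95.8 to 160 TPM in letrozole and 337 to 438 TPM in untreated glands. Of 6 T cell genes 5 were lower (Trac, -1.37 ± 0.29, limma adjusted p = 0.0089), with sums of 5.13 to 13.9 TPM in letrozole and 26.6 to 30.4 TPM in untreated glands. All 5 proliferation genes were lower (Cdk1, -1.75 ± 0.30, limma adjusted p = 0.0037), with sums of 5.82 to 6.05 TPM in letrozole and 32.3 to 37.1 TPM in untreated glands. T cell and proliferation genes also passed in other comparisons with the same untreated Esr1 glands. With tamoxifen in the Esr1 line Cd3d, Trac, Mki67, Top2a, Birc5 and Cdk1 were lower. Between untreated lines of 20 months Cd3d, Cd3e, Cd3g, Cd8a, Trac and all 5 proliferation genes were lower in the CYP19A1 line. The transcription factor Maf, which serves macrophage identity, was higher with letrozole in the Esr1 line by 0.92 ± 0.28 (limma adjusted p = 0.045). No epithelial, T cell or proliferation gene was at 0 in any gland, and the part of these cells in the result was not tested. Lyve1 is also a gene of lymphatic vessels, whose 5 other genes summed to 12.7 to 13.7 TPM with letrozole and 6.43 to 14.3 TPM untreated, and none of the 4 tested passed in limma (1 had an unadjusted p under 0.05).

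In the CYP19A1 line letrozole gave no call. None of the 35 genes passed against untreated glands of 20 months in limma, none had an unadjusted p under 0.05, and 0.0207% of all genes passed. The median was -0.34 against -0.099 over all genes, and it was -0.15 without CYP19A1 letrozole replicate 3, -0.19 without untreated replicate 1 and -0.54 without untreated replicate 3. With median-ratio scaling the medians were -0.22 for the panel and 0.01 for all genes. Folr2 had 13.9, 11.61 and 4.67 TPM in letrozole and 18.27, 14.75 and 13.31 TPM in untreated glands, a difference of -0.68 ± 0.40. Ccr2, the receptor with which monocytes leave the marrow, had 5.98, 5.88 and 2.6 TPM in letrozole and 8.97, 8.09 and 5.69 TPM in untreated glands (-0.60 ± 0.37, limma adjusted p = 1.0 for both). The groups overlapped for both genes. Itgam and Ccl6 lay below without overlap, 2 of 35 genes beside 8.51% of all genes.

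Whether letrozole acted differently in the 2 lines was tested directly. None of the 35 genes passed, none of all 19325 genes did, and 9 of the 35 had an unadjusted p under 0.05 in limma. Those with the smallest p were Ccl6, at -1.45 ± 0.50 (CYP19A1 effect minus Esr1 effect), and Itgam, at -1.26 ± 0.44 (adjusted p = 0.33 each). Lyz1 stood at -1.65 ± 0.61 and Folr2 at -1.62 ± 0.57. The median was -0.44, against -0.096 over all genes. It was -0.25 without Esr1 untreated replicate 2, -0.76 without Esr1 untreated replicate 1 and -0.71 without CYP19A1 letrozole replicate 2. Within a line, the tamoxifen, letrozole and age effects share the 20-month untreated glands, so their values are not independent.

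Set directly against each other, the drugs gave no call in the panel. In the CYP19A1 line 34 of 35 genes were higher on average with tamoxifen than with letrozole, beside 78.0% of all genes, with a median of 0.36 against 0.16, or 0.19 against 0.0 with median-ratio scaling. None passed in limma, beside 0.248% of all genes, and 1 of the 35 had an unadjusted p under 0.05. Ccr2 had 7.85, 9.28 and 8.82 TPM with tamoxifen and 5.98, 5.88 and 2.6 TPM with letrozole (0.79 ± 0.37, limma adjusted p = 0.49), without overlap. Folr2 had 17.28, 19.04 and 13.7 TPM with tamoxifen and 13.9, 11.61 and 4.67 TPM with letrozole (0.78 ± 0.40, limma adjusted p = 0.53) and overlapped. In all, 9 of 35 genes lay above without overlap, beside 21.7% of all genes.

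In the Esr1 line none of the 35 passed in limma either, beside 0.129% of all genes, and 7 of them had an unadjusted p under 0.05. Lyz1 had 7.09, 4.96 and 10.11 TPM with tamoxifen and 29.57, 17.34 and 16.69 TPM with letrozole (-1.40 ± 0.43, limma adjusted p = 0.34). Lyve1 had 3.42, 4.64 and 4.99 TPM with tamoxifen and 12.63, 9.34 and 7.17 TPM with letrozole (-0.98 ± 0.32, limma adjusted p = 0.39). Neither overlapped, and with Ccl6, Ccl9, Ccr2, Cd163, Folr2 and Timd4 (a receptor for phosphatidylserine on dying cells) they make up the 8 genes that lay below without overlap, beside 6.93% of all genes. The median of the panel was -0.09, and it was -0.49 without Esr1 tamoxifen replicate 2, 0.16 without tamoxifen replicate 1, 0.04 without letrozole replicate 1 and -0.29 without letrozole replicate 2.

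Genes of the same pathways outside the panel were counted as well. Of 10 genes of Fc receptor and Trem2 signalling and the phagocyte oxidase, 1 passed in any of the 16 comparisons, the oxidase subunit Cyba, lower at 20 months in the CYP19A1 line (-1.15 ± 0.35, limma adjusted p = 0.046). Of 11 growth factor and lineage genes, 10 were tested, and Csf2ra, a chain of the GM-CSF receptor, was lower at 20 months in the CYP19A1 line (-0.74 ± 0.20, limma adjusted p = 0.027). Of 12 genes of lipid-laden macrophages, 1 was lower between untreated lines at 20 months, 2 with age in the CYP19A1 line and 2 with letrozole in the Esr1 line. Among them, the lipid droplet gene Plin2 was lower with letrozole in the Esr1 line (-1.57 ± 0.29, limma adjusted p = 0.0046) and at 20 months in the CYP19A1 line (-1.19 ± 0.29, limma adjusted p = 0.021); fat and epithelial cells use it too. Of the 10 genes of alternative activation, 8 were tested and none passed in any of the 16 comparisons in limma (14 of the 128 tests had an unadjusted p under 0.05), with Chil3 listed at 0 in 5 libraries. Of 9 genes of inflammatory activation 6 were tested, and 3 of 96 tests passed (17 had an unadjusted p under 0.05). Nos2 (-0.60 ± 0.16, limma adjusted p = 0.028) and Tnf (-0.97 ± 0.30, limma adjusted p = 0.049) were lower at 20 months in the CYP19A1 line. Tnf was also lower with letrozole in the Esr1 line (-1.13 ± 0.30, limma adjusted p = 0.026).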

How the data were processed

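Gene expression was measured by sequencing of stranded, rRNA-depleted total RNA from 24 mammary glands, per the labels. The authors deposited 1 table of TPM values per gene and sample, with no counts, so depth and counting error are unknown. Per the submitters' processing notes, the tools were STAR 2.7.9a and RSEM 1.3.1 with Trim Galore 0.6.5 and FastQC 0.11.9, and the genome build was mm10. Settings and annotation: not given in the sources used here. TPM is a share of a library, so a change in very abundant genes moves all others.

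From these values, log2(TPM + 1) was kept for the 19325 genes that reached 1 TPM in 3 or more samples and was fitted with limma 3.58.1 (R 4.3.3; trend and robust options) on the 8 group means, with p-values adjusted by Benjamini-Hochberg over all tested genes and a threshold of 0.05. A fold change on this scale understates the change of low genes, and ± beside a log2 difference is its SE. Genes with an unadjusted p under 0.05 were counted in the panel and the lists but not over all genes. Groups came from the labels, and 16 comparisons were made: the lines in each condition and averaged, age, each drug against untreated and against the other within each line, and the difference of these effects between lines. The script was tested on simulated data. Alternatives were a pseudocount of 0.1, no filter, median-ratio scaling, rescaling without genes that reach 10000 TPM, a skeletal muscle score as covariate, the replicate number as a block, only the compared groups, and each library left out.

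The 36 genes and 22 further gene lists were chosen with earlier results of these data known. All 36 genes were accounted for. In each comparison the genes that passed were described with all samples, or the 2 with the smallest p where none passed. Some other genes were named after their values were seen, and not all of these are marked. Unmarked cases include Itgax with letrozole in the Esr1 line, Lyve1 with age in the CYP19A1 line, and Lyz1 and Folr2 in the difference of the letrozole effect. Promoter windows came from RefSeq (GRCm38.p6). No 2 libraries held identical values.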

Additional observations from a re-analysis of the deposited data

How the results depend on the processing

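Counts of genes that passed among the 35 varied with the processing, and the cause was not tested except where a smaller set of samples or tested genes is part of the alternative. With only the compared groups fitted, 0 genes passed between the lines at 20 months untreated, 1 between letrozole glands of the lines (Ccl6) and 0 with age in the CYP19A1 line. With age in the CYP19A1 line, 0 passed with a pseudocount of 0.1, without the filter, with median-ratio scaling or with rescaling without the most abundant genes, and 2 with the muscle covariate. For tamoxifen in the Esr1 line, median-ratio scaling gave 1 (Aif1). For letrozole in the Esr1 line, median-ratio scaling gave 6, rescaling 5 and the muscle covariate 4. Leaving out each library in turn gave 0 to 3 calls between lines at 20 months untreated, 0 to 1 under tamoxifen, 2 to 6 averaged, 0 to 2 with age in the CYP19A1 line and 0 to 10 with letrozole in the Esr1 line, and 0 in the other comparisons. The labels do not say whether replicate numbers pair the samples. Over 84 same-numbered pairs the correlation of deviations ran from -0.41 to 0.30 with a median of 0. The 168 pairs of unlike number ran from -0.4 to 0.55, also with a median of 0. Deviations from means of 3 glands cannot decide whether the samples were paired. The replicate block gave 2 calls with letrozole in the Esr1 line (Lyz1 and Cx3cr1), Aif1 in place of Cx3cr1 with age in the CYP19A1 line, and Lyz2 in place of Itgax in the averaged line comparison. No tracked gene reversed. Beside the values above, single genes kept their side of the threshold in 249 alternatives with all libraries, were lost in 9 and gained in 17, and with a library left out in 324, 29 and 13.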

Other observations

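With 3 mice per group, the within-group SD of single glands was larger than the SD of the group means for 28 of the 35 tested genes. Means of 3 glands vary less than single glands, so this count is no measure of how far groups differ. Values are shares of whole-gland RNA, and the deposited TPM hold no read counts.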
